A study of Caenorhabditis elegans with 2 samples.

Results

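Transfer RNA (tRNA) genes on chromosomes I to V of the nematode Caenorhabditis elegans were examined for binding of the zinc finger protein encoded by ztf-29. The members are all 336 genes that the Ensembl annotation of WBcel235 (ce11) calls tRNA outside the X chromosome and the mitochondrial genome, of 612 nuclear tRNA genes and 46890 annotated nuclear genes. A member was counted as at a peak when the summit of a listed peak lay within 200 bp of the gene body. The rule uses the annotation and no binding value.

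The data are chromatin immunoprecipitation with sequencing (ChIP-seq), which reads out where a protein sits on DNA, from a single group of 2 biological replicates. Both come from strain RW12283, in which a TY1::EGFP::3xFLAG tag was inserted by CRISPR at the endogenous ztf-29 gene, so every worm carried the tag, and the antibody recognised GFP. The material was whole mid-stage embryos obtained by bleaching, labelled as 0 hour old, with sonicated DNA of 200 to 800 bp. No untagged or other condition was analysed here, and whole embryos do not tell in which cells the protein was bound.

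Transfer RNAs bring amino acids to the ribosome. Their genes are short and are transcribed by RNA polymerase III, which also makes other short non-coding RNAs. The promoter lies inside the gene, where the factor TFIIIC contacts an A box near the 5′ end and a B box farther on, and transcription ends at a run of T just past the gene. Many tRNA genes occur as several identical copies, and in worms many lie inside introns of protein-coding genes. The members were 68 to 122 bp long with a median of 72 bp, and the RefSeq annotation of the same assembly gave 334 of them a product, in 21 isotypes (the amino acid a tRNA carries).

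The genes under some of the strongest peaks are shown because their shared parts, rather than a common whole sequence, are what these members have in common. Each is printed 5′ to 3′ on the gene's strand with the 25 bp that follow it, from the RefSeq genome of ce11. The first capitals mark the B box word GTTCNANNC and the second the longest run of T after the gene.
F33G12.t1 (Ile, chrII:5032771-5032869, plus strand): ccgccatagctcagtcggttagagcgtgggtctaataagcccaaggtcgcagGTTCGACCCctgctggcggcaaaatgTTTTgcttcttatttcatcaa
F29C4.t1 (Arg, chrIV:143982-144079, plus strand): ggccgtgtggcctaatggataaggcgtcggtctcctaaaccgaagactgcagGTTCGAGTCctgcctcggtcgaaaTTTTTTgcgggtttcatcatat
F57F5.t1 (Ile, chrV:12002176-12002285, plus strand): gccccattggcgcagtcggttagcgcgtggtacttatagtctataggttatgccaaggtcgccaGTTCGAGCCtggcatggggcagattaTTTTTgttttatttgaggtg
ZC455.t1 (Ser, chrV:12780361-12780467, minus strand): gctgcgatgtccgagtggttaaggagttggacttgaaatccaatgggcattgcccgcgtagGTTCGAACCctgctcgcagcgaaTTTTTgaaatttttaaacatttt
F42A10.t1 (Ser, chrIII:6158778-6158884, plus strand): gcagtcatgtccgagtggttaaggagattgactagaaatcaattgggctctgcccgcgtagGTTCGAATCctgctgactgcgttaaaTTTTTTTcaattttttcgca
Searched on the gene's strand only, the B box word was found in 319 of the 336 members (94.9%). It was found in 148 of 180 autosomal tRNA pseudogenes (82.2%) and in 104 of 4462 other autosomal genes of 50 to 150 bp (2.33%). A run of at least 4 T within 25 bp after the gene was found in 331 members.

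Autosomal tRNA genes were at a peak far more often than annotated genes in general. In the authors' conservative list, made from both replicates, 110 of 336 members were at a peak (32.7%, 95% exact interval 27.7 to 38.04), where the share over all 40868 annotated autosomal genes was 1.99%. In the authors' full thresholded list 121 members were at a peak (36.0%, 30.9 to 41.4), against 2.53% of all autosomal genes. Replicate 1's own list placed 60 members at a peak (17.9%, 13.9 to 22.4), against 1.22% of all autosomal genes, and replicate 2's own list placed 88 (26.2%, 21.6 to 31.2), against 1.90%. The mean over the replicates' own lists was 22.02% ± 5.89 (SD, n = 2). These intervals cover counting error only, and neighbouring genes and identical copies are not independent of each other.

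The lists of the replicates were largely nested at these genes. Replicate 2 listed 52 of the 60 members that replicate 1 listed (86.7%), and these were 59.1% of the 88 members of replicate 2. All 52 were in the conservative list too. The conservative list added 7 members listed in replicate 1 alone, 29 listed in replicate 2 alone and 22 listed in neither. The conservative and the full list together put 125 members at a peak and shared 106. No list placed a peak at 208 members.

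The members without a listed peak were not all without signal. The ranked lists hold all candidate peaks, listed or not, and 245 members had a candidate of the conservative ranking within 200 bp. The 135 of these outside the conservative list had a median signal of 42.6, against 25.9 for all candidates of that ranking, on the authors' scale, which the sources do not state. Their median IDR, the expected share of peaks ranked as high that do not recur, was 0.494, where the highest allowed for listing was 0.01. No candidate lay near the other 91 members. Of the 240 candidates at members, 101 were listed (42.1%, 35.8 to 48.6), against 1.41% of all ranked autosomal candidates. In the full list 113 of 249 were listed (45.4%), against 2.00%. In replicate 1 this was 56 of 214 (26.2%, 20.4 to 32.6), against 1.13%, and in replicate 2 it was 83 of 219 (37.9%, 31.4 to 44.7), against 1.81%.

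Across the 189 members that each replicate gave a candidate, replicate 1's and replicate 2's signal gave a Pearson correlation of 0.851 and a Spearman correlation of 0.766. These are correlations across genes, which are not independent replicates and share the libraries and, among copies, the sequence. Among the 109 of them at a conservative peak the values were 0.816 and 0.617, and among the 80 others 0.0147 and 0.0909. The list itself was chosen by the IDR, which rests on recurrence between samples, so this split follows from the selection in part and is given as a description. The 22 members listed in the conservative list but in neither replicate had signals from 37.9 to 64.8 in replicate 2. Of these, 21 had a candidate in replicate 1, with signals from 27.0 to 42.3. Their median IDR was 0.0717 in replicate 1 and 0.0658 in replicate 2, so they lay past the limit in each replicate on its own.

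**Figure D1:**
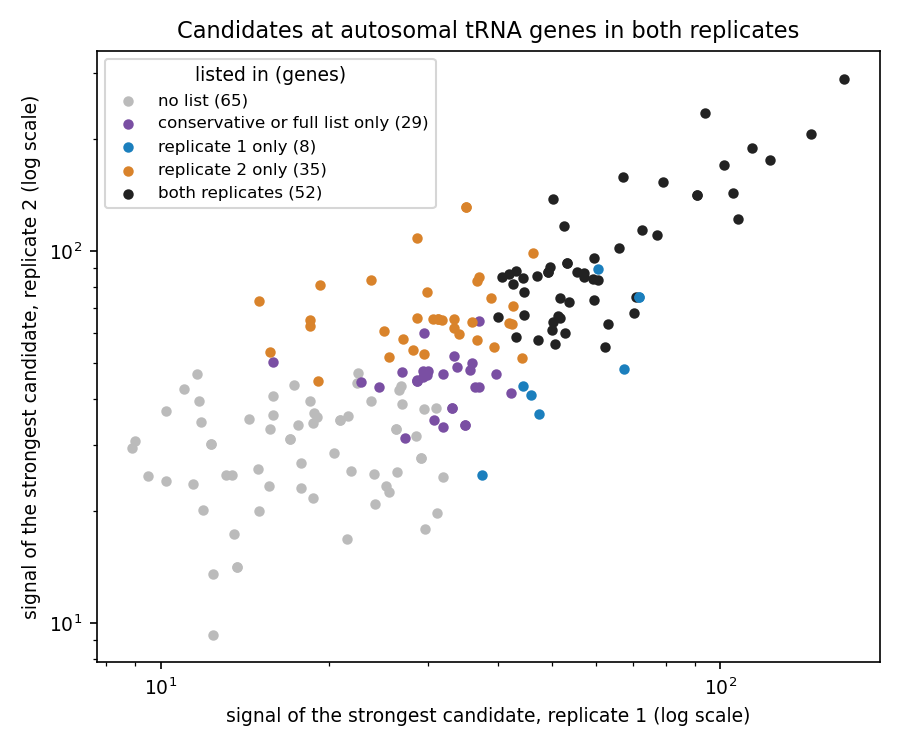
Each point is 1 of the 189 autosomal tRNA genes with a candidate within 200 bp in both replicates, with the authors' signal of its strongest candidate in replicate 1 (x axis, log scale) and replicate 2 (y axis, log scale), coloured by the lists that hold it. The 52 genes listed in both replicates reach signals of 166.6 and 290.4, and the genes in no list sit at the lower left.

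The strongest member was T21B4.t1, an isoleucine tRNA gene on chromosome II (12494741 to 12494814), in an intron of the collagen gene col-85 and antisense to it. Its signal was 449.1 in the conservative list, 166.6 in replicate 1 and 290.4 in replicate 2, the highest of all members in each. The cysteine gene C37A2.t1 on chromosome I (6781803 to 6781874), in an intron of the cyclin E gene cye-1, came next with 351.9, and with 145.5 and 205.6 in the replicates. Both were far above the median of 114.3 over the 101 conservative peaks at members.

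F33G12.t1, the isoleucine gene printed first, had a conservative signal of 331.2, with 94.1 in replicate 1 and 235.0 in replicate 2. The tryptophan gene sup-5 on chromosome III (8678497 to 8678568), known for its amber suppressor alleles, had 313.2, with 113.8 and 189.1. The arginine gene F29C4.t1, antisense in an intron of the collagen gene col-99, had 305.1, with 122.9 and 175.9. All 5 of these genes lie in introns, and each replicate listed all 5.

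F57F5.t1, an isoleucine gene outside protein-coding genes, had a conservative signal of 269.7, with 101.8 in replicate 1 and 170.4 in replicate 2. The serine gene ZC455.t1 had 255.6, with 105.4 and 143.3. The serine gene F42A10.t1 had 242.9, with 91.0 and 141.0, and the neighbouring F42A10.t2 was counted through the same summit, which lies 167 bp from it. The lysine gene B0350.t1 had 235.4 and the methionine gene T15B12.t1, which lacks the B box word, had 233.4.

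Over all 101 conservative peaks at members, the signal ran from 68.1 to 449.1 with quartiles of 89.0 and 144.6. These peaks made up 15.7% of the 642 autosomal peaks, and 14 of them were among the 100 strongest of the whole list. The 541 other autosomal peaks had a median of 96.8. In replicate 1 the medians were 54.6 for 56 peaks at members and 50.6 for the other autosomal peaks, and in replicate 2 they were 74.8 for 83 peaks and 67.2. Signals were compared only within a list.

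Some members were listed in 1 replicate and absent from the conservative list. C24H11.t1, a threonine gene on chromosome III, was listed in replicate 1 with a signal of 37.6 and had 25.03 and an IDR of 0.542 in replicate 2. T04D3.t4, a threonine gene on chromosome I, was listed in replicate 2 with 80.9 and had 19.3 and an IDR of 0.736 in replicate 1. ZC412.t1, a phenylalanine gene on chromosome V, was listed in replicate 2 with 73.5 and had 15.01 and an IDR of 0.854 in replicate 1. The full list held T04D3.t4 and ZC412.t1 but not C24H11.t1.

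The summits lay in the front part of the genes. The median summit in the conservative list was 20.5 bp past the 5′ end of the gene (110 genes, quartiles 8 and 38.8 bp, range -167 to 182 bp). The summit was inside the gene body for 85 of the 110 (77.3%), before it for 20 and past its 3′ end for 5. Since 9 peaks were counted for a pair of genes, some summits outside a gene lie inside the neighbouring tRNA gene, as for F42A10.t2 and W09G10.t3. In replicate 1 the median was 15.5 bp with 43 of 60 inside, and in replicate 2 it was 19 bp with 68 of 88 inside. The A box lies in this part of a tRNA gene, whereas the B box word printed above lies closer to the 3′ end, but with fragments of 200 to 800 bp a summit does not separate sites this close.

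**Figure D2:**
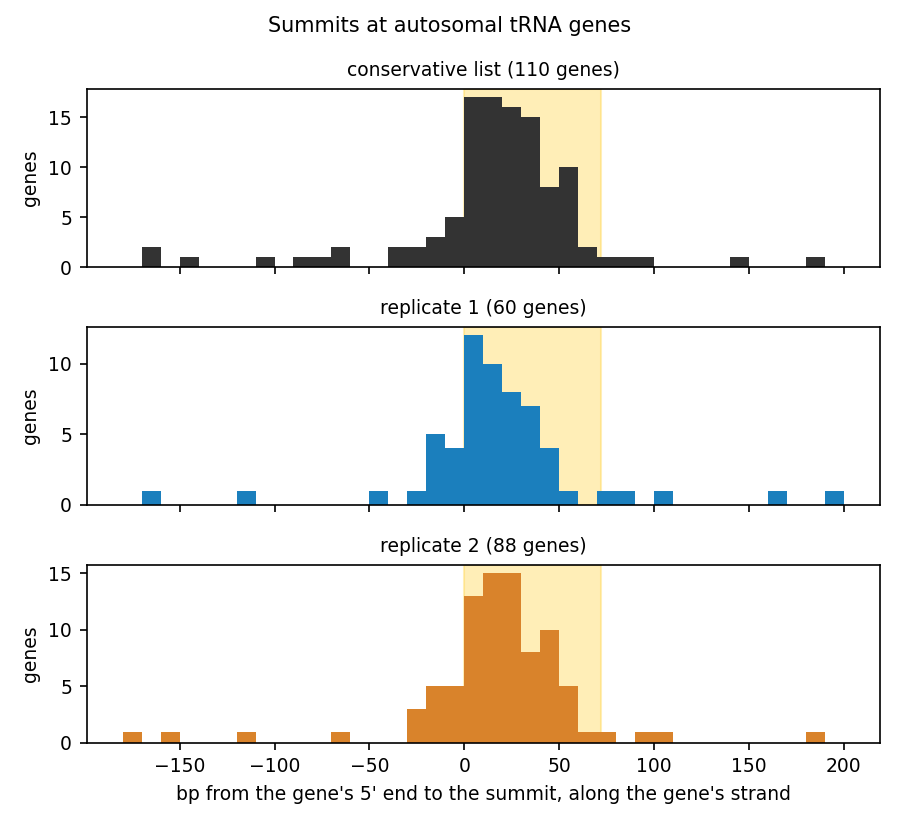
Distance in bp from the 5′ end of the gene to the strongest listed summit within 200 bp of the gene body, along the gene's strand. Bars are counts of genes in bins of 10 bp for the conservative list (110 genes) and the own lists of replicate 1 (60 genes) and replicate 2 (88 genes). The shaded span is the median gene length of 72 bp, and in each panel most summits fall in its left part.

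The limit of 200 bp decided few members. Just inside it, F42A10.t2 and C16C8.t2 lay 167 bp from their summit and W09G10.t3 lay 143 bp away, each with the summit nearer to another tRNA gene. Just outside it, Y65A5A.t3 lay 337 bp, K11H3.t1 342 bp and Y65A5A.t4 357 bp from the nearest conservative summit. In all, 9 conservative peaks were counted for a pair of members, and none for more.

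Members with identical sequence differed from each other. The 336 members have 137 different gene bodies, 86 members are the sole copy of their sequence in the nuclear genome, and the most frequent sequence occurs 29 times. Of 43 sequences with at least 2 autosomal genes (242 genes), 32 had some genes at a conservative peak and some not, 9 had none at a peak and 2 had all. Over all members the share at a conservative peak was 32.7%. Whether these counts differ from those of unrelated genes at that share was not tested. For reads that match several copies, the authors' treatment is not given in the sources analysed here. Such reads can be shared among copies or dropped, and the part this has in the values was not tested.

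The most frequent sequence, a glycine tRNA with 29 copies, had 8 of its 18 autosomal genes at a conservative peak, with signals from 70.5 to 117.6. A lysine tRNA with 25 copies had 11 of 15 at a peak, with signals from 79.4 to 235.4. An aspartate tRNA with 21 copies had 7 of 11 and a proline tRNA with 24 copies 3 of 11. The own lists of replicates 1 and 2 held 2 and 5 of these glycine genes and 6 and 9 of the lysine genes. They held 3 and 2 of the aspartate genes and 1 and 0 of the proline genes. Some of the 8 glycine genes were counted in pairs through a single summit. The lysine genes were thus spread over a wide range although their bodies are the same.

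The identical genes reached from the strongest signal to no candidate. Among 9 isoleucine genes with the sequence of T21B4.t1 (449.1), the next was C27A2.t1 with 135.9, and Y92C3A.t3 had no candidate in any ranking. Among 6 tryptophan genes with the sequence of sup-5 (313.2), sup-29 and rtw-6 had unlisted conservative candidates of 31.8 and 37.0. For sup-24 the conservative ranking held none and replicate 1 held an unlisted one of 34.5. All 7 genes of a leucine sequence found only on autosomes were outside every list, with conservative candidates from 5.0 to 52.3.

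**Figure D3:**
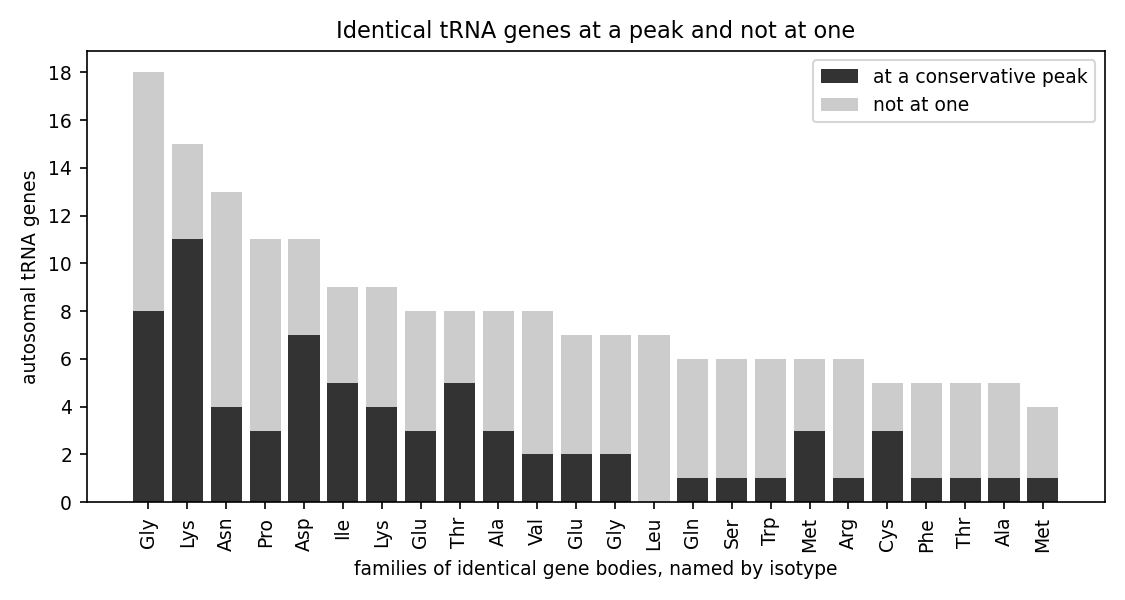
Families of identical tRNA gene bodies with at least 4 autosomal genes, named by isotype, with the number of genes at a conservative peak (dark) and not at one (light) stacked from 0. Nearly every bar has both parts, from 8 of 18 genes in the largest glycine family and 11 of 15 in the lysine family to 0 of 7 in a leucine family.

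By isotype, lysine tRNA genes had 15 of 28 at a conservative peak (53.6%, 33.9 to 72.5), cysteine 3 of 6, arginine 8 of 17, aspartate 7 of 15 and isoleucine 7 of 16. The replicates' own lists held fewer, for aspartate 3 of 15 in replicate 1 and 2 of 15 (13.3%) in replicate 2, below the 26.2% of all members there. Tyrosine had 1 of 11 (9.09%, 0.230 to 41.3), tryptophan 1 of 7 and histidine 2 of 11. Serine had 5 of 21 and methionine 4 of 12, with the same number of genes in each replicate's own list. The single selenocysteine tRNA gene had no peak. The intervals of the isotypes are wide and no difference between isotypes was tested.

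Genes with a repeated sequence were more often at a peak than sole copies. Of 250 members with at least 1 identical copy, 94 were at a conservative peak (37.6%), and of 86 sole copies 16 were (18.6%). The difference was 19 percentage points (95% Newcombe interval 7.88 to 28.2). It was 17.1 points in the full list (5.58 to 27.0) and 11.5 points in replicate 1 (2.29 to 18.6), and in replicate 2 it was 10.2 points with an interval that included 0 (-0.664 to 19.2). In the better-ranked part of the conservative list by signal it was 8.45 points, also with an interval that included 0 (-1.60 to 16.5). Among members with the B box word it was 18.1 points (6.43 to 27.7), a comparison added after the data were seen. Members with at least 20 copies were at a peak in 32 of 63 cases (50.8%), and in 23.8% and 30.2% in the replicates. With 2 to 3, 4 to 9 and 10 to 19 copies the conservative shares were 33.3%, 29.8% and 35.0%. In replicate 1 these shares were 23.3%, 22.8% and 17.0%, and in replicate 2 they were 26.7%, 29.8% and 28.0%. The replicates' own lists thus showed no steady rise with the number of copies among repeated genes. The intervals treat genes as independent, whereas identical copies share a sequence and some pairs share a summit, so they can be too narrow. Only identical whole gene bodies were counted as copies, so reads at a sole copy may match other tRNA genes too. The part that reads with several matches have in the difference was not tested.

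Arms against centres, introns against sites outside protein-coding genes, and the strand within introns gave no difference whose interval left out 0 in the conservative list. On the chromosome arms, the parts outside 25% to 75% of each chromosome's length, 58 of 166 members were at a peak (34.9%), and in the centres 52 of 170 (30.6%), a difference of 4.35 points (-5.65 to 14.3). Inside introns of protein-coding genes 64 of 188 were at a peak (34.0%), and outside such genes 43 of 139 (30.9%), a difference of 3.11 points (-7.22 to 13.1) whose sign was negative in replicate 1 (-4.91). Intronic genes antisense to their host had 28 of 77 at a peak (36.4%) and those in sense 36 of 110 (32.7%), a difference of 3.64 points (-9.86 to 17.4) that was -0.779 in replicate 1. By chromosome the share ran from 16 of 78 on V (20.5%, 12.2 to 31.2) to 27 of 64 on III (42.2%, 29.9 to 55.2), and V was lowest and III highest in each replicate too. The difference between chromosomes was not tested.

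Members with another tRNA gene within 1000 bp had 31 of 101 at a conservative peak (30.7%) and the others 79 of 235 (33.6%), a difference of -2.92 points (-13.2 to 8.23). In replicate 2 clustered genes were less often at a peak, by -12.0 points (-20.7 to -1.77), while in replicate 1 the interval included 0 (-7.13, -14.8 to 2.03). Within 200 bp of another tRNA gene 18 of 44 were at a conservative peak, where a single summit can be counted for a pair of genes.

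Nearly all members have the B box word and the T run, so few genes stand on the other side of these contrasts. With the word 105 of 319 members were at a conservative peak, and without it 5 of 17, a difference of 3.50 points (-20.7 to 20.5). With a T run 109 of 331 were at a peak and without one 1 of 5, a difference of 12.9 points (-29.8 to 30.1). Of the 17 members without the word, 6 share a methionine sequence, and the summit lay inside the gene body at T15B12.t1 (signal 233.4) and F14B6.t2 (107.2). Another gene of that sequence, Y22D7AL.t3, was counted through a summit 111 bp away (148.0), which lies inside the neighbouring glutamate gene Y22D7AL.t4, a gene with the word.

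The sequence just before the gene differed between members at a peak and the others. This feature was chosen after its values were seen, so it is given as counts without a test. The GC content of the 50 bp upstream had a median of 48% for the 110 members at a conservative peak and 42% for the 226 others, and the medians were 48% and 44% in replicate 1 and 48% and 42% in replicate 2. At a peak these windows held 28.8% C and 22.1% A on the gene's strand, and otherwise 24.4% C and 27.0% A. In the lowest quartile of GC (20% to 38%) 10 of 94 members were at a peak (10.6%, 5.22 to 18.7), and in the quartiles above it 34 of 83, 28 of 75 and 38 of 84 (45.2%, 34.3 to 56.5). In the lowest quartile the shares were 5.32% in replicate 1 and 7.45% in replicate 2, and in the highest 27.4% and 40.5%. Base composition can affect the recovery of DNA in sequencing, and its part here was not tested.

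**Figure D4:**
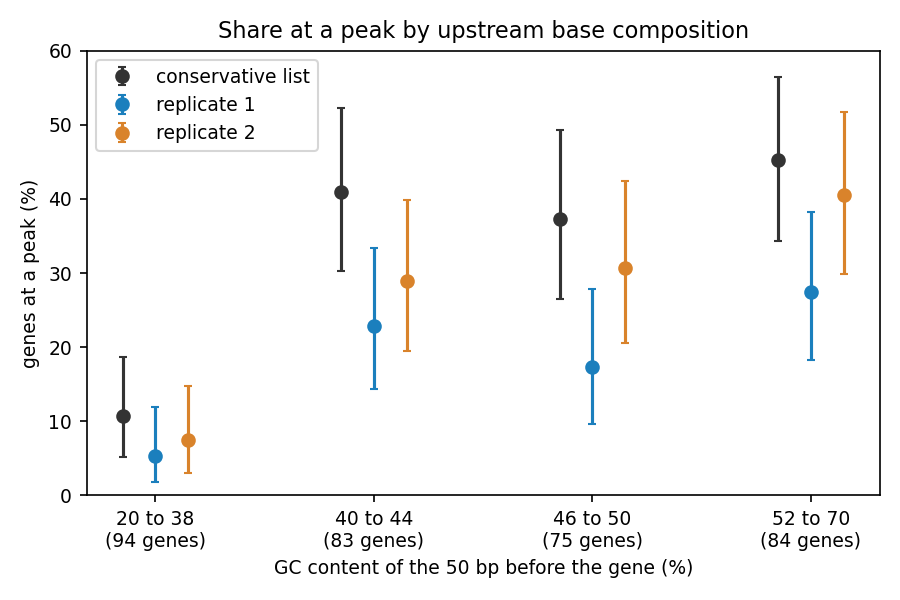
Share of autosomal tRNA genes at a peak (y axis, %) by quartile of the GC content of the 50 bp before the gene (x axis), for the conservative list and each replicate's own list, with exact 95% intervals as bars. In each of the 3 lists the lowest quartile, with 10.6% in the conservative list, lies below the other quartiles.

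The share at low upstream GC was also counted within repeated genes and within sole copies, and whether it differs between them was not tested. Of repeated members in the lowest quartile 6 of 63 were at a conservative peak (9.52%), and of repeated members in the other quartiles 88 of 187 (47.1%). For sole copies the counts were 4 of 31 (12.9%) and 12 of 55 (21.8%). On chromosome V 1 of 28 members in the lowest quartile was at a peak, and 15 of 50 of the others (30.0%). On chromosomes I to IV the counts were 9 of 66 (13.6%) and 85 of 192 (44.3%), so that V had the lower share in both strata. In the 32 families with both kinds of genes, whose bodies are identical, the mean upstream GC was higher at the genes with a peak in 25 families and lower in 6, with a median difference of 4.75 points.

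A short word was also counted upstream, again after its values were seen. TCTC on the gene's strand within 60 bp before the gene was found in 139 members (41.4%), and in 31.0% of 17242 autosomal protein-coding genes. Of the 139 members, 66 were at a conservative peak (47.5%), and of the 197 without it 44 (22.3%). The shares were 29.5% and 9.65% in replicate 1, and 37.4% and 18.3% in replicate 2. Outside the lowest GC quartile they were 64 of 120 (53.3%) and 36 of 122 (29.5%), and inside it 2 of 19 and 8 of 75.

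The 50 bp upstream of pairs of genes with identical bodies are shown because only their surroundings can differ. The first of each pair was at a conservative peak and the second was not, and capitals mark TCTC on the gene's strand, with overlapping matches joined.
Y43D4A.t2 (Gly, chrIV:16776038-16776087, plus strand, at a peak): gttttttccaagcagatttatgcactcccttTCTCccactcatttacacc
Y51H4A.t5 (Gly, chrIV:16670938-16670987, minus strand, not at a peak): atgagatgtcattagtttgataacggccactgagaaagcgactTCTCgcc
B0350.t1 (Lys, chrIV:5967110-5967159, plus strand, at a peak): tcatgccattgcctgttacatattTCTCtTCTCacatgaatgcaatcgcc
F42H10.t1 (Lys, chrIII:8473423-8473472, plus strand, not at a peak): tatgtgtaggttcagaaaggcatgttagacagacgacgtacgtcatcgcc
T23F1.t2 (Pro, chrV:15465297-15465346, minus strand, at a peak): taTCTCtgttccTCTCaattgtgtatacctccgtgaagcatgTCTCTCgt
F02H6.t1 (Pro, chrIV:14225052-14225101, plus strand, not at a peak): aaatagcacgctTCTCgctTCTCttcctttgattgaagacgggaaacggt
In the lysine pair the word stands in the window of the gene at a peak alone. In the glycine and proline pairs both windows hold it, so that the word does not separate the genes at a peak from the others in these examples. The GC content of the window was lower at the gene with a peak in each pair. It was 42% against 46% for glycine, 42% against 48% for lysine and 44% against 46% for proline. In GC content these examples thus run opposite to the medians over all members. Both replicates listed Y43D4A.t2 and B0350.t1, whereas T23F1.t2 was listed in replicate 1 and not in replicate 2. Its candidate in replicate 2 had an IDR of 0.826.

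Compared with tRNA genes on the X chromosome, the autosomal ones had a share at a peak that did not differ beyond counting error, and a lower median signal. On X 94 of 276 tRNA genes were at a conservative peak (34.1%), a difference of -1.32 points for autosomes minus X (-8.83 to 6.12). It was 1.59 points in the full list, -5.69 in replicate 1 (-12.2 to 0.723) and -2.80 in replicate 2, and each interval included 0. The median signal of the 86 conservative peaks at X tRNA genes was 147.1, against 114.3 at the autosomal ones. The medians were 67.9 on X and 54.6 on autosomes in replicate 1, and 97.7 and 74.8 in replicate 2. For 43 sequences found on both, 90 of 223 autosomal genes (40.4%) and 72 of 185 X genes (38.9%) were at a peak.

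Autosomal tRNA pseudogenes, annotated remains of tRNA genes, were seldom at a peak. Of 180 such pseudogenes 4 were at a conservative peak (2.22%), near the 1.99% of all autosomal genes. The difference from the 336 members was 30.5 points (95% Newcombe interval 24.7 to 35.9), in a comparison added after the data were seen. In replicate 1 it was 3 of 180 pseudogenes (1.67%) and in replicate 2 it was 4 of 180.

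**Figure D5:**
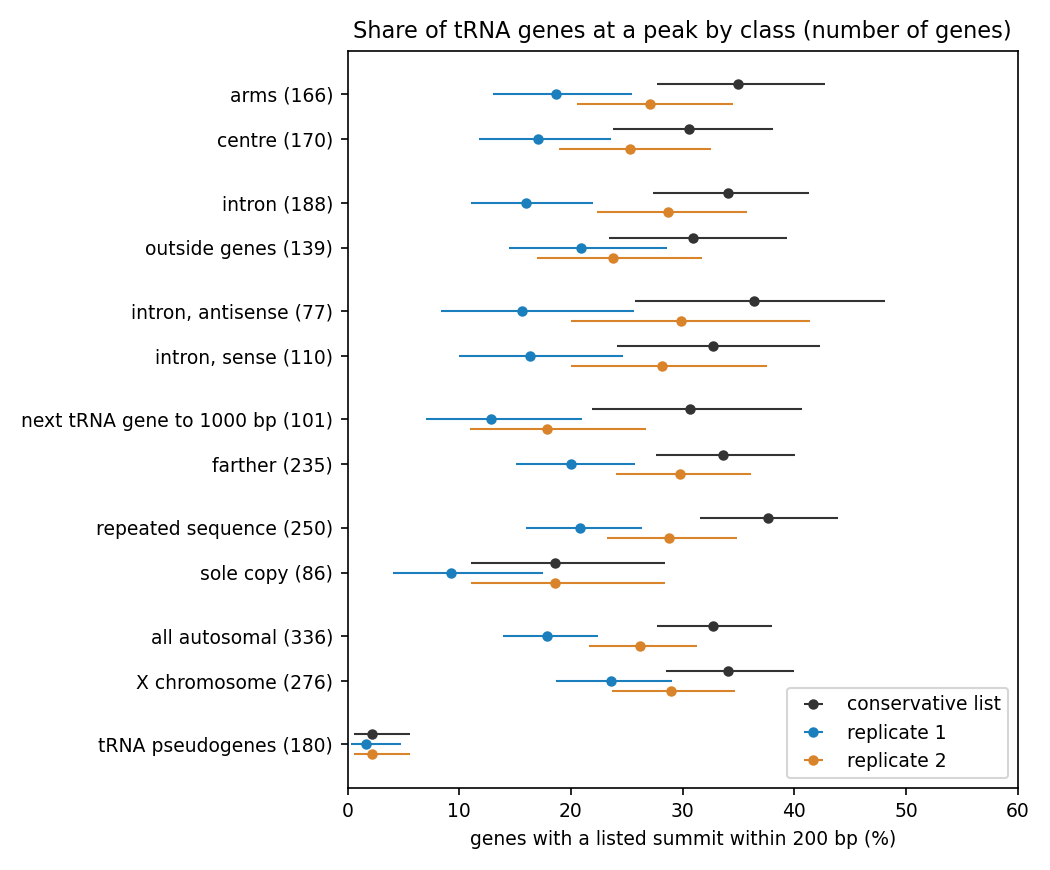
Share of tRNA genes with a listed summit within 200 bp (x axis, %) for each class of autosomal tRNA genes, for X tRNA genes and for autosomal tRNA pseudogenes, with the number of genes in brackets, points for the conservative list and each replicate's own list, and exact 95% intervals as bars. In the conservative list sole copies (18.6%) lie below repeated genes (37.6%) and pseudogenes (2.22%) below every other class, while the other pairs overlap widely.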

How the data were processed

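The deposited data are peak lists on ce11, per the labels and the deposited readme. For each of the 2 replicates and for both together there is a ranked list of candidates and a thresholded list. The lists for both together have a conservative and a full version. The signal of each peak is the value deposited by the authors, never negative and on an unstated scale. The deposited score, and the minus log10 IDR score in the ranked lists, give the irreproducible discovery rate (IDR), and no listed peak exceeded an IDR of 0.01. The aligner, the peak caller, the versions and the read depth are not given in the sources analysed here, so no value could be set against depth.

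Members were read from Ensembl release 115 on WBcel235, and names and products from RefSeq by gene ID, which matched start and end for 336 members. Summits were assigned to members within 200 bp of the gene body, in the conservative list (main), the full list and each replicate's own list. Copies are identical gene bodies among nuclear tRNA genes. Shares have exact Clopper-Pearson intervals and differences have Newcombe score intervals, both at 95%. A difference was called where the interval left out 0, no p-value was computed, and the intervals are not corrected for the 8 class comparisons in 4 lists. Named genes were the 15 strongest members listed in both replicates, the strongest of each isotype, the strongest that neither replicate or 1 replicate alone listed, members with a sup or rtw locus name and members near the distance limit, and the text gives part of them. C27A2.t1, Y92C3A.t3, F14B6.t2 and Y22D7AL.t3 were named after their values were seen. Members and lists of classes were chosen with earlier results of these data known. No sequence from chromosome I was printed, nor a gene body with an identical copy there. The assignment of summits and the intervals were tested on simulated data. The software was scipy 1.17.1, pandas 2.3.3, numpy 2.4.6 and matplotlib 3.10.9 in Python 3.11.15.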

Additional observations from a re-analysis of the deposited data

How the results depend on the processing

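Of 109 alternative values, 87 kept their direction and their side of the threshold, or moved by less than the spread between the replicates. The share of members at a conservative peak (32.7%) was 25.3% with the summit inside the gene body and 20.2% in the better-ranked part of the list by signal, and 17.9% to 26.2% with 1 replicate left out. The difference between repeated genes and sole copies was 8.45 points in the better-ranked part, where its interval included 0, and 10.2 to 11.5 points with 1 replicate left out. Clustered minus isolated genes gave -13.5 points with the summit inside the gene, where the interval left out 0, 1.04 with a limit of 500 bp, 9.40 with clusters of 200 bp (added after the data were seen), and -12.0 to -7.13 with 1 replicate left out.

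Signs also turned, with intervals that included 0, for arms minus centre with a narrower centre (-1.33 points), autosomes minus X in the full list (1.59) and by peak overlap (0.686), the B box word (-3.47) and antisense minus sense (-2.34) in the better-ranked part. With 1 replicate left out the values were -5.97 to 2.80 for the B box word, -0.779 to 1.69 for antisense minus sense and -4.91 to 4.98 for intronic minus outside. The median rank of member peaks within the list, in percent from the top, was 39.6, and 34.8 in the full list and 42.8 to 44.4 with 1 replicate left out. The median summit position was 15.5 to 19 bp with 1 replicate left out. The causes were not tested. No paired analysis was possible because the series has a single group.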
